A study of Drosophila melanogaster with 3 samples.

Results

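The regions described are ChIP-seq peaks of the Drosophila repressor E(spl)mgamma-HLH that ranked among the strongest of replicate 2 and had no counterpart among the strongest of replicates 1 and 3. They were selected on measured values: from each replicate's dm6 list of peaks and background the 4524 peaks of highest signal were taken as its top peaks, and a top peak of replicate 2 was a member when it shared no base with a top peak of either other replicate. This gave 673 members, which is 14.9% of the 4524 top peaks of replicate 2 and sits within 77618 listed regions over the 3 lists. The same rule gave 511 top peaks of replicate 1 alone (11.3%) and 458 of replicate 3 alone (10.1%). Of the other 3851 top peaks of replicate 2, 3263 overlapped a top peak of both other replicates and 588 of 1 of them. The members were private to replicate 2 only at the level of the top lists, since 579 of the 673 shared a base with some listed region of replicate 1 or 3.

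Whole embryos of Drosophila melanogaster, 0 to 16 h old and of both sexes pooled, were used for chromatin immunoprecipitation with sequencing in 3 biological replicates. All 3 came from 1 transgenic line, labelled Esplmgamma-HLH-GFP, that stably expresses E(spl)mgamma-HLH with GFP fused to its C-terminus, and the antibody used recognises GFP. Chromatin was sonicated to fragments of 200 to 800 bp. The labels do not name the promoter or the insertion site of the transgene, they describe no second genotype or treatment, and the control experiment they mention was not analysed here.

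E(spl)mgamma-HLH is 1 of 7 basic helix-loop-helix (bHLH) repressors encoded in the Enhancer of split complex, which Notch signalling switches on in cells that are kept from becoming neural precursors. These proteins recruit the co-repressor Groucho, and their basic region is known to favour E-boxes of class B, CACGTG, and the related class C site CACGCG over the E-boxes bound by proneural activators. Embryonic chromatin also holds promoter-bound factors that give peaks in many ChIP-seq experiments, among them GAGA factor at GAGAG repeats and DREF at the DNA replication-related element TATCGATA. A signal in a peak list does not by itself tell direct binding from such regions.

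Windows of 101 bp around member summits are shown to give the sequence behind the results on sites. The first 3 are among the members of highest signal that lay off annotated exons. Examples of members with an E-box or a class C site follow. The windows do not come from every chromosome arm, so a stronger member can be absent for a reason other than an exon. All are read from the RefSeq dm6 genome on its forward strand, 5′ to 3′. Capitals mark CACGTG and the sites CACGCG and GAGAG on either strand, so that CGCGTG and CTCTC are the reverse readings of the class C site and of the GAGA element. The first 3 windows belong to promoter members near the tensin gene by, near CG3149, and near E(spl)malpha-BFM, a Bearded family gene.
by, chr3R:9533201-9533301: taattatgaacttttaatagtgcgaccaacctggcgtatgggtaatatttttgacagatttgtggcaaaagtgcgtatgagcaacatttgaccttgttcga
CG3149, chrX:5696698-5696798: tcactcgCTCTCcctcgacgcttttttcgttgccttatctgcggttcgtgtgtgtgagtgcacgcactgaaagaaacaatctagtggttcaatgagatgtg
E(spl)malpha-BFM, chr3R:26010738-26010838: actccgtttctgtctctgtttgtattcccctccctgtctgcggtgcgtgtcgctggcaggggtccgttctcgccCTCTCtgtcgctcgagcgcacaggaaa
None of these 3 windows holds a CACGTG or a CACGCG, and the window at the gene by holds no GAGAG either. The next 3 windows hold CACGTG but not its extended form, in a promoter near muc, in an intron near CG4935 and in a promoter near Pdp1, a gene for a basic leucine zipper activator.
muc, chr2L:7423522-7423622: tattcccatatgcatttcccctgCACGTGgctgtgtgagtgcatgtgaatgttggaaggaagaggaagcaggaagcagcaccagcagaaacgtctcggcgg
CG4935, chr2L:16269626-16269726: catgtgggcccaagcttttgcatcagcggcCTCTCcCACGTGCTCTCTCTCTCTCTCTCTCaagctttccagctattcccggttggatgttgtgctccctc
Pdp1, chr3L:7867503-7867603: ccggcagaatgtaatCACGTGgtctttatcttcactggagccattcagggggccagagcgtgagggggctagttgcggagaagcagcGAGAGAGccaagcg
The E-box near CG4935 is set directly against a run of GAGA repeats, and the window near Pdp1 holds both kinds of site. Of the 4 members with the extended E-box GGCACGTG, read on either strand, 3 are shown, in the promoter of ps, in an intron of hzg and in the promoter of Sp1, which encodes a zinc finger factor. The other, near CG18273, overlapped an exon. They were chosen after their values were seen.
ps, chr3R:9419387-9419487: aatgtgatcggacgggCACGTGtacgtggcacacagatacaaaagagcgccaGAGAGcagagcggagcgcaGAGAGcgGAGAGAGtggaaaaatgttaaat
hzg, chr3L:15999753-15999853: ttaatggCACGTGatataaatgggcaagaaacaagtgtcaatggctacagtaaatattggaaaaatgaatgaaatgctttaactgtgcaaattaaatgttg
Sp1, chrX:9729101-9729201: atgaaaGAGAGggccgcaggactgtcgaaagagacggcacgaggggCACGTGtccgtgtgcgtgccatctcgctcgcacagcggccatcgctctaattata
The last 6 windows hold the class C site, in the promoter of Kdm2, a histone demethylase, in introns near CG45075 and CG11630, in the promoter of wapl, a cohesin release factor, and at 2 intergenic members of the Enhancer of split complex, of which the first lies upstream of the tagged gene itself.
Kdm2, chr3R:9053126-9053226: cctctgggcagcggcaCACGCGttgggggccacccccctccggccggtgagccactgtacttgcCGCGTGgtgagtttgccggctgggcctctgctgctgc
CG45075, chr2L:6088526-6088626: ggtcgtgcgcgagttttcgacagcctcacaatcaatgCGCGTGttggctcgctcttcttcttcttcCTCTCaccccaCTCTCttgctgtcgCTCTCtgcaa
CG11630, chr2L:21789663-21789763: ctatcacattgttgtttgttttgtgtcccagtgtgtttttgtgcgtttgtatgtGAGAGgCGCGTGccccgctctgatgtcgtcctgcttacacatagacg
wapl, chrX:2156091-2156191: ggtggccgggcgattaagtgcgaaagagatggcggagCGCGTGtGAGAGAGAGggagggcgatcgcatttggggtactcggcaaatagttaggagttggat
E(spl)mgamma-HLH, chr3R:25999023-25999123: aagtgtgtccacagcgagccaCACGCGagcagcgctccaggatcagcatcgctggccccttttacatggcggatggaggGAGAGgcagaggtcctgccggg
Kaz-m1, chr3R:26013535-26013635: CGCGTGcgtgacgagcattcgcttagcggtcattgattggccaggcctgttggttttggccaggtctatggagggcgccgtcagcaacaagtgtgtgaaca
The Kdm2 window holds the site in both orientations and has a GC content of 72.3%, against 37.6% in the window at the gene by.

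The members filled the lower ranks of the replicate 2 top list. Their ranks ran from 548 to 4524 with a median of 3690, whereas the other top peaks of replicate 2 had a median rank of 1947. In all, 635 members (94.4%) ranked below 2262 and 38 ranked above it. These ranks are a description, because the signal that orders them also chose the members. Signal ran from 152.4 at the strongest member down to 43.1, with a median of 49.7. The 5 members last inside the threshold, at ranks 4520 to 4524, were nearest to CG11313, salm, CG31793, Or67d and Nmnat, with signals of 43.12 to 43.10. The 5 replicate 2 peaks just outside it, at ranks 4525 to 4529, were nearest to CheA75a, esg, flr, hth and rudhira, with signals of 43.10 to 43.09, so no step in signal separated the sides. All 4524 top peaks of replicate 2 carried the highest −log10 q-value of that list, 4.17, a value that 7473 peaks of the list share, so the deposited q-value does not order the members.

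Most members had a weaker counterpart in the other lists. A listed region of replicate 1 overlapped 480 members (71.3%) and one of replicate 3 overlapped 524 (77.9%), with 425 members (63.2%) overlapped in both and 94 (13.97%) in neither. The matched regions had a median rank of 7358 in replicate 1, between 4530 and 23138, and of 6966 in replicate 3, between 4525 and 24016. With a q-value below 0.05 required of the match, 96 members kept one in replicate 1, 271 kept one in replicate 3 and 54 kept one in both. The pooled list, called on the 3 replicates together and so holding the replicate 2 reads, overlapped 656 members, at a median rank of 5360.5. The authors' reproducible set overlapped 133 members (19.8%). Lists differed in length, with 23367, 30000 and 24251 regions in replicates 1, 2 and 3, of which the round 30000 may be a limit set in peak calling, and their depth is unknown, so that a rank in one list is not a level that can be set against a rank in another.

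**Figure D1:**
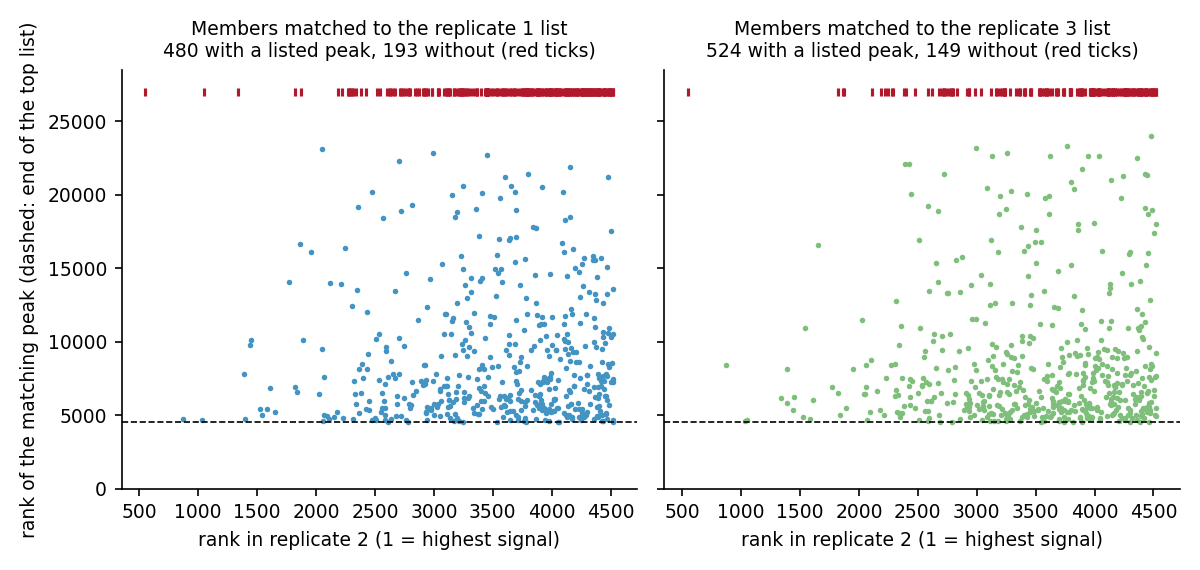
Each point is 1 member, with its rank by signal in replicate 2 on the horizontal axis and the rank of the listed region that overlaps it in replicate 1 (left, 480 points) or replicate 3 (right, 524 points) on the vertical axis. Red ticks are the 193 and 149 members with no overlapping region; all points lie below the top 4524 of the other list by construction, and many lie just past that line.

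The members stood apart from the rest of the replicate 2 top list in where they lay. Each summit received 1 class, in the order promoter, 5' UTR, coding sequence, 3' UTR, intron and intergenic, with a promoter reaching 500 bp to either side of any annotated transcription start site (TSS), coding or not. Intergenic summits made up 138 of the 673 members (20.5%, Wilson 95% interval 17.6 to 23.7) against 12.7% of the other 3851 top peaks (adjusted exact p = 1.42e-06). Introns held 199 members (29.6%, 26.2 to 33.1) against 36.3% (adjusted exact p = 0.00151). Promoters held 309 members (45.9%, 42.2 to 49.7) against 49.9%, a difference that did not pass the threshold (adjusted exact p = 0.0720). The 5' UTR held 14 members, or 2.08% against 0.364% (adjusted exact p = 3.61e-05), the coding sequence held 5, or 0.743% against 0.130% (adjusted exact p = 0.0142), and the 3' UTR held 8, or 1.19% against 0.623% (adjusted exact p = 0.129). These are two-sided Fisher exact tests with Benjamini-Hochberg adjustment over the 6 classes. Their p-values, like those for sites below, count peaks of 1 library as units and cover counting error only, and 14 members share bases with another member. Set against the top peaks of replicate 1 or 3 alone, the intergenic difference was 2.24 percentage points (adjusted exact p = 0.418) and the intron difference was -8.72 percentage points (adjusted exact p = 0.00165), so the larger intergenic share was not a property in which the members differed detectably from peaks private to the other replicates. With the top lists cut at 2262 peaks, the intron difference turned to 3.96 percentage points (adjusted exact p = 0.382), and it missed the threshold when replicate 1 (-3.04, adjusted exact p = 0.0849) or replicate 3 (-2.40, adjusted exact p = 0.197) was left out of the rule, whereas the promoter difference then passed (-6.70, adjusted exact p = 0.000502, and -7.59, adjusted exact p = 7.70e-05). The coding sequence difference missed it without replicate 3 (0.363, adjusted exact p = 0.0703), and among the 94 members with no listed region elsewhere the intergenic difference was -1.12 (adjusted exact p = 0.880). With 9048 top peaks it was 0.979 (adjusted exact p = 0.277), which did not pass.

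**Figure D2:**
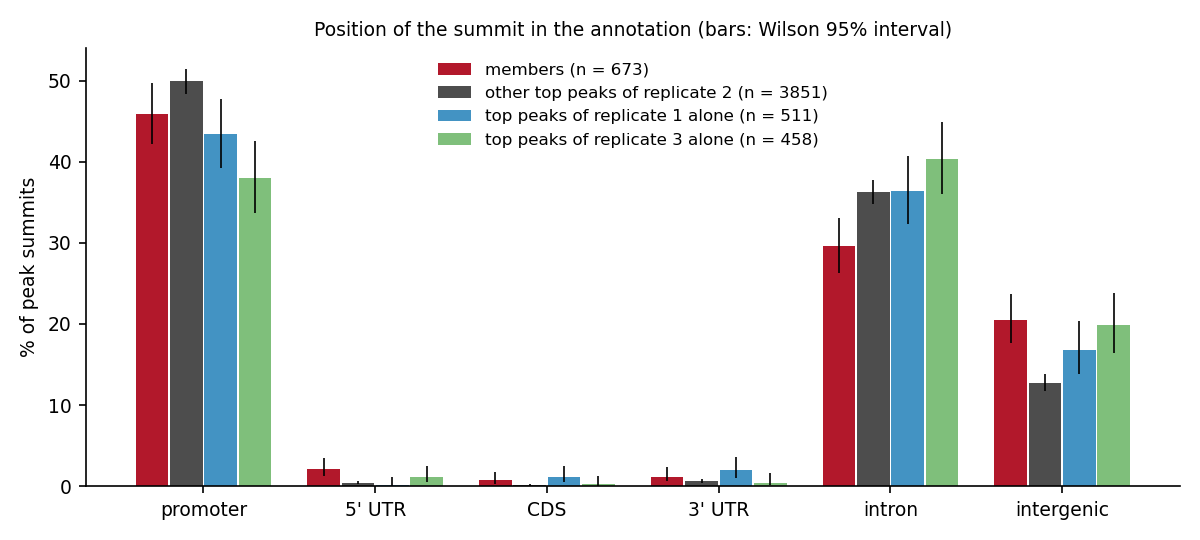
Bars give the percentage of summits in each position class for the members, the other top peaks of replicate 2, and the top peaks of replicate 1 alone and of replicate 3 alone; error bars are Wilson 95% intervals. Promoters are the largest class in the members at 45.9%, and the members have the lowest intron share of the sets, at 29.6%.

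The median distance from a member summit to the nearest TSS was 1128 bp, compared with 598 bp for the other top peaks of replicate 2, 1057 bp for the top peaks of replicate 1 alone and 1531 bp for those of replicate 3 alone. The median distance from a member summit to the nearest other member was 38880 bp, and 76 members had another within 5 kb, of which 22 had one within 1 kb. A top peak of replicate 2 that was no member lay within 1 kb of 66 members.

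The members were richer in G and C at the summit than any other set compared. Their windows of 101 bp had a mean GC content of 40.5% ± 11.3 (SD, n = 673 peaks), against 34.7% ± 9.04 (SD, n = 3851) in the other top peaks of replicate 2. Among top peaks private to a replicate the means were 37.3% ± 9.45 (SD, n = 511) for replicate 1 and 34.5% ± 7.82 (SD, n = 458) for replicate 3. The flanking windows, centred 500 bp away, ran the other way, at 41.6% in the members and 43.7% in the other top peaks. In windows of 51 bp, GC content in the other top peaks fell from 44.3% at 300 bp left and 44.1% at 300 bp right to 34.4% at the summit. The dip in the members was shallower, from 43.5% at 150 bp left and 43.7% at 200 bp right to 40.4%. Members and other top peaks also differed at like ranks, since the other top peaks ranked below 2262 had a mean of 35.7%. It was largest in promoters, with 44.2% ± 10.9 (SD, n = 309) in the members and 35.6% ± 9.70 (SD, n = 1922) in the other top peaks. The 94 members with no listed region in either other replicate had a mean of 48.6% ± 8.81 (SD), and the other 579 had 39.2% ± 11.1 (SD). These GC values are descriptions without a test. The base composition of the libraries cannot be read from peak lists, and its part in which peaks became members was not tested.

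**Figure D3:**
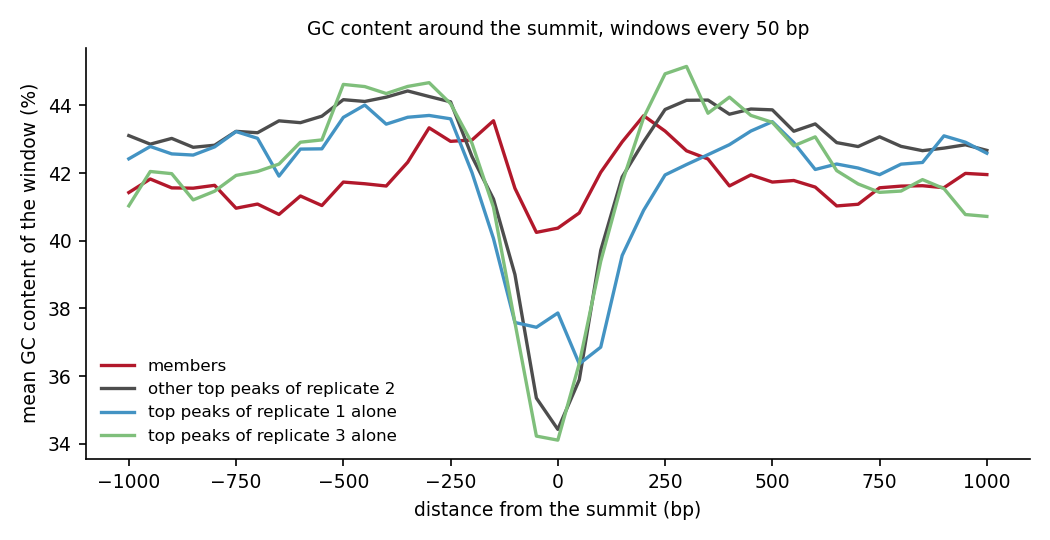
Lines give the mean GC content, in percent, of windows of 51 bp placed every 50 bp from 1000 bp left to 1000 bp right of the summit, for the members and the 3 other sets. The members' line dips to 40.4% at the summit while those of the other top peaks of replicate 2 and of replicate 3 alone fall further, to 34.4% and 34.1%.

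The class C site and the class B E-box were more frequent in the members than in the other top peaks, while no N-box hexamer differed detectably. The class C site CACGCG lay in 29 members (4.31%, Wilson 95% interval 3.02 to 6.12) against 55 of 3851 (1.43%, 1.10 to 1.85; two-sided Fisher exact test, adjusted exact p = 6.61e-05 over 22 motifs). The class B E-box CACGTG lay in 15 members (2.23%, 1.36 to 3.64) against 29 (0.753%, 0.525 to 1.08; adjusted exact p = 0.00828). The extended form GGCACGTG lay in 4 members (0.594%) and in 4 other top peaks (0.104%), which did not pass the threshold (adjusted exact p = 0.0647). The 4 N-box hexamers CACNAG, with N any base, did not pass either. CACAAG was in 4.61% against 3.58% (adjusted exact p = 0.412) and CACCAG in 3.71% against 2.49% (adjusted exact p = 0.200). CACTAG was in 2.67% against 3.27% (adjusted exact p = 0.698) and CACGAG in 1.49% against 1.51%. Top peaks private to the other replicates had the class C site and the class B E-box less often: CACGCG in 1.17% of those of replicate 1 and 0.437% of those of replicate 3, and CACGTG in 0.196% and 0.437%. Over both of those sets together the difference was 3.48 percentage points for CACGCG (adjusted exact p = 9.06e-05) and 1.92 for CACGTG (adjusted exact p = 0.00254). In the other top peaks and in both private sets, summits held each of these sites less often than flanks 500 bp away, as given below. Around all 19252 annotated protein-coding TSSs, windows of the same length held CACGCG in 3.605% and CACGTG in 1.82%, and the 309 promoter members held them in 6.47% (Wilson 95% interval 4.23 to 9.79) and 3.56% (2.00 to 6.26).

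The GAGA element GAGAG, the simple repeat bound by GAGA factor, gave the lowest p-value of the 22 motifs. It lay in 129 members (19.2%, Wilson 95% interval 16.4 to 22.3) against 10.05% of the other top peaks (9.14 to 11.04; adjusted exact p = 2.55e-09), 10.96% of the top peaks of replicate 1 alone, 11.6% of those of replicate 3 alone and 12.7% of windows around TSSs. Of the 10 E-box hexamers, CAGCTG (6.538% against 4.10%, adjusted exact p = 0.0393) and CACATG (5.20% against 3.17%, adjusted exact p = 0.0424) were also higher in the members, and CAAATG (6.98% against 10.2%, adjusted exact p = 0.0393) was lower. None of these 3 E-boxes passed when replicate 1 or replicate 3 was left out of the rule, with the lowest adjusted exact p at 0.0608. In total 5 of the 22 motifs were higher and 1 was lower. The DNA replication-related element TATCGATA was in 19 members (2.82% against 1.64%, adjusted exact p = 0.0999) and did not pass. It passed without replicate 3 in the rule (2.07 percentage points, adjusted exact p = 0.000474) and with sharing judged by summits (1.36, adjusted exact p = 0.0494), and with 9048 top peaks it was -0.387 (adjusted exact p = 0.366). The Su(H) site, bound by the transcription factor of Notch signalling and searched as its 4 forms CGTGAGAA, CGTGGGAA, TGTGAGAA and TGTGGGAA, was in 9 members (1.34% against 1.01%, adjusted exact p = 0.655).

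These site differences moved with GC content and with promoters. Among peaks with a summit GC content of 40% or more, which held 52.6% of the members and 25.6% of the other top peaks, GAGAG was in 29.7% of members and 15.7% of other peaks (adjusted exact p = 1.07e-06), CACGCG in 7.34% and 3.75% (adjusted exact p = 0.0722) and CACGTG in 2.54% and 1.32% (adjusted exact p = 0.626). Below 40% GC, GAGAG was in 7.52% of members and 8.10% of others (adjusted exact p = 1), CACGCG in 0.940% and 0.628% (adjusted exact p = 0.746) and CACGTG in 1.88% and 0.558% (adjusted exact p = 0.141). This split by GC content was chosen after seeing the data. In windows of 50% GC or more, GAGAG was in 60 of 143 members (42.0%, Wilson 95% interval 34.2 to 50.2) and in 43 of 256 others (16.8%, 12.7 to 21.9). Top peaks of replicate 1 alone held it in 12 of 62 such windows (19.4%, 11.4 to 30.9). Those of replicate 3 alone held it in 9 of 20 (45.0%, 25.8 to 65.8), so a high share was not particular to the members. In promoters, GAGAG was in 24.9% of members and 8.90% of other peaks, CACGCG in 6.47% and 1.93%, and CACGTG in 3.56% and 1.09%. Outside promoters the differences were 3.09 percentage points for GAGAG (adjusted exact p = 0.342), 1.54 for CACGCG (adjusted exact p = 0.206) and 0.684 for CACGTG (adjusted exact p = 0.342). With the top lists cut at 2262 peaks, which left 298 members, GAGAG differed by 3.03 percentage points (adjusted exact p = 0.684), CACGTG by 1.07 (adjusted exact p = 0.682) and CACGCG by -0.368 (adjusted exact p = 0.985).

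**Figure D4:**
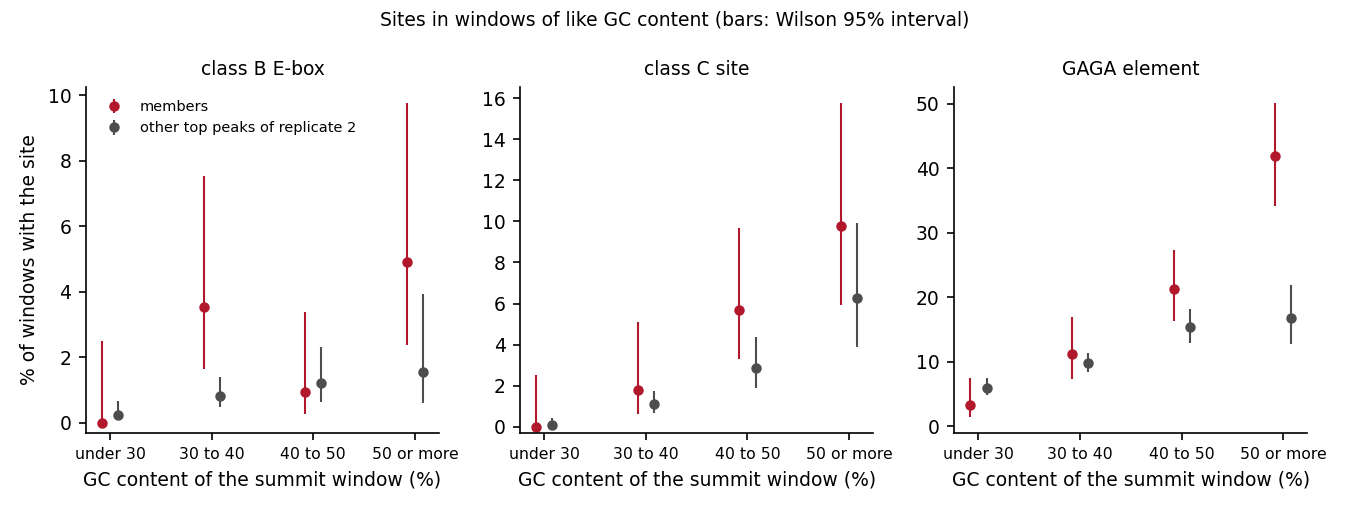
Points give the percentage of summit windows that hold the class B E-box, the class C site or the GAGA element in 4 classes of window GC content, for the members and the other top peaks of replicate 2; error bars are Wilson 95% intervals. Shares of the class C site and the GAGA element rise with GC content in both sets, and at 50% GC or more the GAGA element is in 42.0% of members against 16.8% of other peaks, with intervals that do not overlap. The private sets of replicates 1 and 3, not drawn, held it there in 19.4% of 62 and 45.0% of 20 windows.

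Within the members, the summit was compared with a flanking window of the same length 500 bp away. GAGAG was in 19.2% of summit windows and 11.6% of flanks (exact two-sided McNemar test, adjusted exact p = 0.00171 over 22 motifs), and TATCGATA was in 2.82% and 0.149% (adjusted exact p = 0.000881). Without replicate 1 in the rule the GAGAG difference was 2.33 percentage points (adjusted exact p = 0.405). CACGCG was in 4.31% of summits and 2.82% of flanks (adjusted exact p = 0.532) and CACGTG in 2.23% and 1.49% (adjusted exact p = 0.718), neither past the threshold. With 9048 top peaks, which gave 2068 members, CACGCG differed by 1.79 percentage points (adjusted exact p = 0.0229). The comparison sets held the class C site, the class B E-box and the GAGA element less often at summits than in flanks, which was not tested. The DNA replication-related element was more frequent at their summits, as in the members, which was not tested either. It was in 1.64% of summits and 0.338% of flanks in the other top peaks of replicate 2. The shares were 1.76% and 0.783% in replicate 1 alone, and 1.53% and 0.873% in replicate 3 alone. In the other top peaks of replicate 2, CACGCG was in 1.43% of summits and 2.47% of flanks, CACGTG in 0.753% and 1.40%, and GAGAG in 10.05% and 13.7%. In replicate 1 alone CACGCG was in 1.17% and 2.35% and CACGTG in 0.196% and 1.96%. In replicate 3 alone CACGCG was in 0.437% and 3.06% and CACGTG in 0.437% and 1.75%. The search over all 2080 hexamers found 188 higher in the members than in the other top peaks, which is 9.04% of those tested, and 96 lower, which is 4.62%. The 5 leading higher hexamers were AGAGCG (9.96% of members against 2.91% of other peaks, adjusted exact p = 5.37e-11), GCGAGC (6.84% against 1.84%), GCGAGA (8.02% against 2.62%), CGAGCG (5.79% against 1.45%) and AGCGAG (8.02% against 2.75%). The 5 leading lower ones were TTAAAA (19.6% against 31.4%, adjusted exact p = 1.30e-07), TAAAAA (19.2% against 30.1%), AAAATA (23.6% against 34.6%), AATAAA (19.5% against 28.7%) and AAAAAT (24.5% against 34.3%). The higher hexamers had a mean of 4.32 G or C bases and the lower ones 0.823, and with peaks of 40% GC or more alone, a restriction chosen after seeing the data, the counts were 17 and 8. Among peaks ranked below 2262 they were 55 and 32.

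The members with CACGTG or CACGCG spread over many loci. All ranked below 2262 except the Kdm2 member with CACGCG, which was 1 of the 20 members of highest signal. The 15 with CACGTG ranked from 2553 to 4136, 11 of them lay in promoters and 5 also held GAGAG. Of these, 4 had no listed region in either other replicate and 6 had one in both. Their nearest genes off the printed windows were CG5114, Acsl, jvl, Pect, CG18273, CG15435, CG13096, Ltn1 and Dp, of which Dp encodes the partner of E2F in cell cycle control. The 29 with CACGCG ranked from 1611 to 4487, with 20 in promoters and 8 holding GAGAG. They included members at kuz, the protease that sheds the Notch ectodomain, at the zinc finger genes jing and lola, at the Hox gene Abd-B, and at RpS19a. The 19 members with TATCGATA all lay in promoters, with the summit between 60 bp upstream and 41 bp downstream of the nearest coding TSS. All but 1 of these lacked GAGAG, and all 19 overlapped a listed region of replicate 1 or 3. Outside promoters TATCGATA was in 0 of 364 members, which allows a share of up to 0.824%.

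The Enhancer of split complex itself held more replicate 2 peaks than the other replicates had there. Its 11 E(spl) genes, the tagged one included, span chr3R:25997621-26041008, which is 43.388 kb. Replicates 1, 2 and 3 listed 18, 45 and 21 regions in this span, of which 4, 15 and 8 were top peaks and 0, 8 and 0 were private to the replicate. Over the whole arm the same length held on average 8.14, 9.14 and 8.18 listed regions, and the stretches of the same length to the left and the right held 5 and 12 in replicate 2, 8 and 10 in replicate 1 and 10 and 17 in replicate 3. The larger number in replicate 2 was therefore seen inside the complex and not in the stretches beside it. Peak lists give neither copy number nor the reads of the transgene, which carries a gene of this complex, and a part of either in these counts was not tested.

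The 8 members of the complex ranked from 1340 to 4334 in replicate 2. The strongest lay 105 bp upstream of the start of E(spl)malpha-BFM, an inhibitor of the ubiquitin ligase Neuralized, at rank 1340 in replicate 2, with no region in the replicate 1 list and rank 6202 in the replicate 3 list. A pair of overlapping members lay 2855 and 3056 bp downstream of the start of E(spl)mgamma-HLH, at ranks 2223 and 2278, with no region in either other replicate. Another member lay 778 bp upstream of that start, at rank 4040, with no region in replicate 1 and rank 22657 in replicate 3. The member 1076 bp upstream of E(spl)malpha-BFM (rank 4009) and the one 1136 bp upstream of Kaz-m1 (rank 4334) had no region in either other replicate. The member 1802 bp upstream of Kaz-m1 stood at ranks 3338, 9392 and 7919 in replicates 2, 1 and 3. The last, 2053 bp upstream of E(spl)m7-HLH, stood at rank 3869 in replicate 2 and rank 17730 in replicate 1, with none in replicate 3. Only the members at ranks 1340 and 3338 overlapped the reproducible set. Of the 8, 2 held CACGCG, 3 held GAGAG, and none held CACGTG or a Su(H) site.

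**Figure D5:**
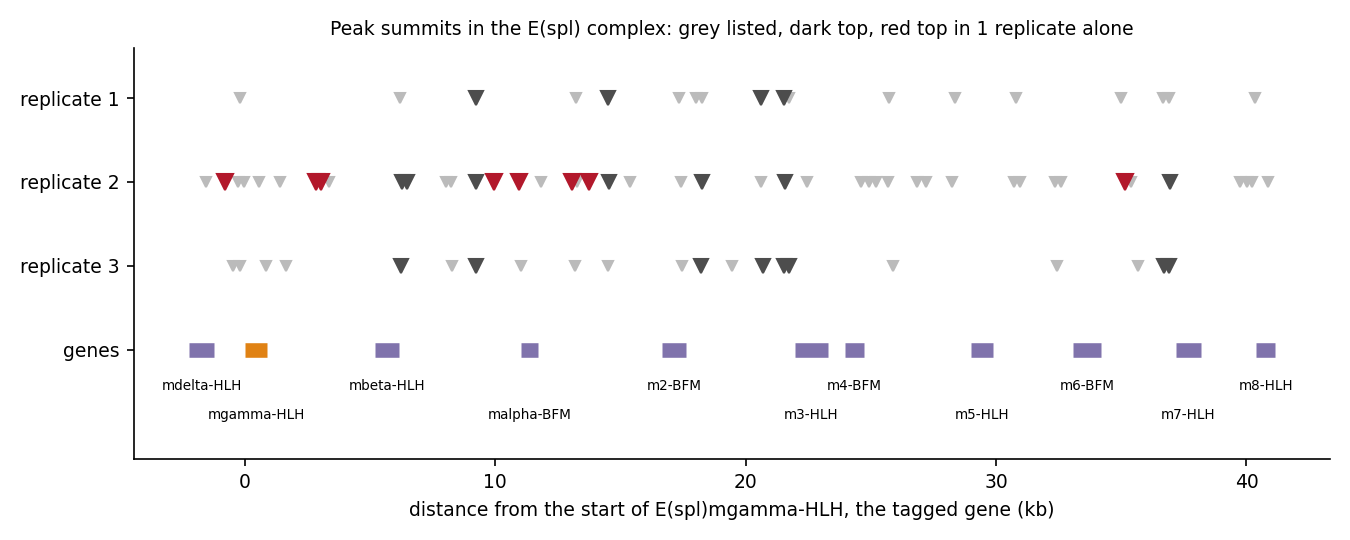
Triangles mark peak summits of each replicate along the Enhancer of split complex, in kb from the start of E(spl)mgamma-HLH, with listed regions in grey, top peaks in dark and the members in red; boxes are genes, the tagged one in orange. Replicate 2 lists 45 summits against 18 and 21, and its 8 members fall in the left part of the complex but for 1 near E(spl)m7-HLH.

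Among the 20 members of highest signal, 12 lay in promoters, 3 in introns and 3 between genes, with 1 in a 3' UTR and 1 in coding sequence. The strongest, at chr3R:9533142-9533312, lay 240 bp upstream of by and ranked 548 in replicate 2 and 440 in the pooled list, with no listed region in replicate 1 or 3. It was also 1 of 3 members narrower than the standard 400 bp, at 171 bp. The second, upstream of shot, a spectraplakin that links actin and microtubules, stood at ranks 871, 4718 and 8455 in replicates 2, 1 and 3. The third, upstream of hts, the fly adducin, stood at 1033, 4674 and 4607, so that it missed both other top lists by fewer than 200 places. The member near CG3149 stood at rank 1046 in replicate 2 and rank 4688 in replicate 3, with no region in replicate 1. Next after the E(spl)malpha-BFM member came those at scyl, an inhibitor of growth signalling, at ranks 1391, 7817 and 8137, and at Atg17, an autophagy gene, at ranks 1393, 4717 and 5851. Members at Stat92E, the fly STAT factor (ranks 1542, 5019 and 10922), Kdm2 (1611, 6825 and 6073) and the nuclear receptor gene Hr3 (1650, 5242 and 16600) were matched in both other lists, in the order of replicates 2, 1 and 3. Those at InR, the insulin receptor (rank 1824), and ap, a LIM homeodomain gene of the dorsal wing and of neurons (rank 1876), were matched in neither. The others of the 20 were nearest to or within dati, CG15429, CG1074, CG43131, Dys, CG6465, CG9500 and Ubr1.

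A total of 572 of the 13945 protein-coding genes (4.1%) carried a member in the gene or within 1 kb upstream, compared with 3.73% for the top peaks of replicate 1 alone and 3.03% for those of replicate 3 alone. No other top peak of replicate 2 lay in 330 of the 572 genes. The share of all protein-coding genes without such a peak was not counted, so the 330 cannot be read against a base rate. Outside any such gene territory lay 164 members. The genes with most members were jing, shot and ush, a GATA cofactor, with 4 each, followed by Hmgs, Ubx, bun, caps, drn and tna with 3 each. A further 31 genes had 2, so the tenth place was tied. Most of these genes are long, jing with 119787 bp and bun with 91072 bp, but the 3 members at Hmgs, the HMG-CoA synthase gene, lay in 5153 bp plus its upstream 1 kb.

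Gene lists are given as counts against the 4.1% of all protein-coding genes, with no test, and long genes offer more room for a peak. Several lists were also dense in top peaks of replicate 2 of any kind. Such a peak lay in 10 of 11 EGFR pathway genes, 10 of 14 sensory organ and neuronal genes and 10 of 14 hormone and ecdysone response genes. It lay in 10 of 15 axon guidance genes, 16 of 26 signalling genes and 54 of 85 cytoplasmic ribosomal protein genes. Of the Notch pathway list 1 of 19 genes had a member (kuz), of the E(spl) bHLH genes 1 of 7 (the tagged gene) and of the Bearded family 1 of 8. The lists of other bHLH-Orange repressors (0 of 4), proneural bHLH genes (0 of 10), segmentation genes (0 of 17) and odorant and gustatory receptors (0 of 119) had none. By nearest protein-coding TSS instead, the segmentation list had 3 of 17, the proneural list 1 of 10 and the receptors 2 of 119. The E(spl) bHLH list then had 2 of 7, the Notch pathway list 2 of 19 and the cytoplasmic ribosomal proteins 7 of 85. The hormone and ecdysone list had 3 of 14 and the axon guidance list 2 of 15, both fewer than by gene territory, as given below. The remaining lists kept their counts. Of the 14 sensory organ and neuronal genes, 6 had a member: fne, pros, lola, jing, cpo and Poxn. The member at pros, whose product starts neural differentiation, lay 22 bp from a start site at ranks 3248, 20601 and 19059 in replicates 2, 1 and 3, and that at lola stood at rank 4487 with no match in the others. The paired box gene Poxn, which specifies chemosensory organs, had its member at ranks 3895, 5474 and 5435.

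The EGFR pathway had 5 of 11 genes with a member, with the receptor Egfr, the ligand-processing genes S and rho, the ligand Krn and the nuclear repressor aop. The member at rho, the protease that releases active ligand, lay 32 bp from the start site at rank 2598 in replicate 2 and rank 13422 in replicate 3, with none in replicate 1. The list of JAK/STAT, Dpp, Hh and Wg signalling genes had 7 of 26: the receptors fz, fz2, ptc and tkv, the beta-catenin gene arm, Stat92E and its feedback inhibitor Socs36E. Members lay at the start sites of fz (126 bp upstream), arm (86 bp upstream), ptc (227 bp upstream), tkv (49 bp upstream) and Socs36E (80 bp upstream). Nuclear hormone and ecdysone response genes had 5 of 14 (EcR, Eip74EF, Eip78C, Hr3 and ftz-f1), axon guidance genes 4 of 15 (robo2, fra, Sema1a and Dscam1), neuroblast factors 3 of 20 (pdm2, brat and baz) and Hox genes 2 of 8, with 3 members at Ubx and 1 at Abd-B. The mesoderm and muscle list had 1 of 12 (Kr-h1), the cell cycle list 1 of 12 (E2f1), the heat shock list 1 of 13 (Hsc70-3) and the Polycomb and trithorax list 1 of 16, which was Trl, the gene for GAGA factor. The cytoplasmic ribosomal protein genes had 6 of 85 (RpL12, RpL35A, RpL37A, RpL39, RpLP1 and RpS19a), each in the promoter within 43 bp of the start site. The strongest of these, at RpL37A, stood at ranks 2179, 5216 and 5358 in replicates 2, 1 and 3. Top peaks of replicate 1 alone and of replicate 3 alone lay in 1 and 2 EGFR pathway genes and in 2 and 3 sensory organ genes. They lay in 2 and 2 signalling genes, 4 and 2 hormone and ecdysone genes and 3 and 1 axon guidance genes. For the Notch pathway these counts were 3 and 0, and for the ribosomal proteins 6 and 0.

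By chromosome arm, 95 members (14.1%) lay on X against 18.9% of the other top peaks (two-sided Fisher exact test, adjusted exact p = 0.0171 over 6 arms) and 21.1% and 19.9% of the top peaks of replicate 1 alone and replicate 3 alone. Set against those private peaks together, X differed by -6.42 percentage points (adjusted exact p = 0.00501). The 5 other arms held between 0.594% (arm 4, 4 members) and 23.8% (3L, 160 members) and did not pass the threshold.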

How the data were processed

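ChIP-seq peak lists of 3 replicates of 1 group were analysed, so no groups were compared. The members and gene lists were chosen with earlier results of these data known. The authors deposited narrowPeak lists called per replicate against a control and on pooled replicates, and a reproducible set from irreproducible discovery rate analysis, per the deposited text records; aligner, caller, versions and cutoffs were not given in the sources used here. The deposited signal value of each peak ordered peaks within a list and was not taken as comparable between lists. The deposited −log10 q-values were used for thresholds of 0.05 and 0.01 only. The offset of the summit is as deposited. Files hold no read counts: depth is unknown, no interval for it can be given, and Wilson 95% intervals cover counting error only.

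All positions are dm6, 1-based, on the arms X, 2L, 2R, 3L, 3R and 4, with genes from Ensembl release 115 (BDGP6.54) and sequence from the RefSeq genome of that build. Motifs (10 E-box hexamers, 4 N-box hexamers, and 8 others) were sought on both strands within 50 bp of each summit, overlaps allowed. Fisher exact and McNemar tests were run in SciPy 1.17.1 with Benjamini-Hochberg adjustment at 0.05 within each family. The Fisher exact test with this adjustment was tested on simulated data with planted hexamers, and the McNemar test was not. Named are the 20 strongest members, list genes with a member, the genes with most members, all members of the Enhancer of split complex, those next to the threshold, and the 5 leading hexamers per direction. The alternatives tried were other top list sizes and sharing rules, dropped replicates, promoter and window sizes, rank and GC restrictions, other comparison sets and gene assignment.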

Additional observations from a re-analysis of the deposited data

How the results depend on the processing

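All differences here are members minus other top peaks, or member summits minus flanks, in percentage points; where one reversed or crossed the threshold, the cause was not tested unless stated. With 2262 top peaks per list there were 298 members. The differences were then -16.4 for promoters, -0.0718 for 5' UTRs, 3.96 for introns, 1.07 for CACGTG, -0.269 for CAGCTG, -0.368 for CACGCG, 3.03 for GAGAG and -0.0116 for TATCGATA. Against flanks they were -0.671 for CACGCG, 0.336 for GAGAG and 0.671 for TATCGATA. With 9048 top peaks there were 2068 members, and introns stood at -2.61 and intergenic summits at 0.979, both no longer past the threshold, with TATCGATA at -0.387 and CACGCG against flanks at 1.79, then past it. Requiring no base shared with any listed region left 94 members, fewer by construction, with 7.22 for promoters, -8.87 for introns, -1.12 for intergenic summits, 0.954 for CAAATG, 3.35 for CACGTG, 4.62 for CACGCG and -1.85 for TATCGATA. Against flanks GAGAG stood at 10.6 and TATCGATA at 0, being in none of these 94 members, which allows up to 3.19%. Promoters of 1000 bp gave -5.79 for promoters and -3.42 for introns. Against top peaks private to replicate 1 or 3, promoters stood at 5.05, 3' UTRs at -0.0497 and intergenic summits at 2.24. Outside promoters the values were 0.684 for CACGTG, 1.54 for CACGCG, 3.09 for GAGAG and -0.104 for TATCGATA, and with 100 bp on either side GAGAG differed from flanks by 6.39.

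The next restrictions were chosen after seeing the data. At 40% GC or more, CACGTG stood at 1.22 and CACGCG at 3.59, and 17 hexamers were higher and 8 lower. Below 40% GC, CACATG and CAGCTG stood at -0.110 each, CACGTG at 1.32, CACGCG at 0.312 and GAGAG at -0.574. Among ranks below 2262, 55 hexamers were higher and 32 lower. Leaving out the Enhancer of split complex, tried for the position classes and for 8 motifs against the other top peaks, changed none of those calls. Leaving out replicate 1 or replicate 3, promoters ranged from -7.59 to -6.70 and passed both times, and introns ranged from -3.04 to -2.40 and passed neither time. GAGAG against flanks ranged from 2.33 without replicate 1 to 5.25 without replicate 3, and missed the threshold without replicate 1. GAGAG as well as CACGTG and the site CACGCG passed both times against the other top peaks. Leaving out replicate 2 leaves no members. The dm3 lists gave 680 members, ordering by q-value gave 675, and the summit rule gave 747. TATCGATA against the other top peaks passed under the summit rule (1.36) and without replicate 3 (2.07). Restricting members to a q-value below 0.01 changed nothing, since all pass. By nearest TSS, 600 genes had a member. No paired analysis was possible because there is 1 group. Depth is unknown, so what it limits cannot be stated.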

Other observations

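Few members coincided with annotated features that can draw reads from several copies. A tRNA gene lay within 500 bp of 4 members, and 1 summit lay in an annotated transposable element. The 133 members that overlapped the reproducible set held CACGTG in 1 (0.752%) and CACGCG in 3 (2.26%), and the 540 that did not held them in 14 (2.59%) and 26 (4.81%); this difference was not tested. The 94 members with no listed region in either other replicate were in promoters in 56.4% and held GAGAG in 27.7%, against 44.2% and 17.8% of the other 579, which was not tested either.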
